A study of Oryza sativa with 14 samples.

Results

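Roots of the rice mutant mhz4 were compared with roots of the wild type (WT) on 4 of the 14 arrays of the series. These were the mhz4 and WT root arrays in air and the mhz4 and WT root arrays in ethylene, chosen by their titles and paired by gas. The series measured RNA of roots and shoots of etiolated rice seedlings on one-colour Affymetrix arrays, with 1 array for each combination of genotype, tissue and gas. There were 8 root arrays (WT, mhz1, mhz4, mhz5) and 6 shoot arrays (WT, mhz4, mhz5). The mutants were isolated for altered ethylene responses, and the question here is which transcripts of mhz4 roots stood apart from WT in both gases and which did so in one gas.

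All seedlings germinated in darkness for 2 days at 37 °C and were 3 days old, per the labels' protocols. The ethylene groups then spent 8 h in the dark at 28 °C with 10 ppm ethylene and water of 1.5 to 1.7 cm. The air groups are labelled as air controls, and no time, temperature or water depth is stated for them. The labels give neither the nature of the mhz4 mutation nor how many seedlings went into an array. Both WT root titles carry the mark mb, which no mutant title has and whose meaning is not given. Whatever it stands for cannot be told apart from genotype in any comparison of a root mutant with WT.

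In published work MHZ4 encodes a chloroplast membrane protein needed to make abscisic acid (ABA), and MHZ5 encodes a carotenoid isomerase upstream of the same hormone. MHZ1 encodes a histidine kinase. ABA is made from carotenoids. It binds receptors that inhibit clade A protein phosphatases 2C (PP2C), which frees SAPK kinases to activate bZIP transcription factors. Known targets of that pathway include the late embryogenesis abundant (LEA) proteins, dehydrins among them, the PP2C genes themselves and the ABA 8′-hydroxylases that break the hormone down. In rice roots ethylene and ABA both restrain elongation, and published genetic work places ABA synthesis downstream of ethylene in the root.

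The values are the deposited intensities, called signal here, on a linear scale. A difference is mhz4 minus WT of log2(signal + 8), so 1 is 2-fold. The added 8 shrinks the differences of weak signals. The analysis kept the 23237 probe sets that reached 50 on 2 or more of the 14 arrays. With 1 array per group a difference within a gas has no replicate check. The test over both gases came from limma on all 14 arrays, with the air and ethylene arrays standing in for replicates. The fit took out an ethylene effect shared by the genotypes of a tissue. Its p-values are therefore set against differences between genotypes in the response to gas plus array noise, not against the spread between seedlings. An array-wide difference in growth or hybridisation would be part of a genotype's effect.

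Each array had 19196 to 20048 probe sets at or above 50, and root arrays correlated at 0.976 to 0.991 (Spearman, over probe sets, which are not independent). The summed signal of 8 shoot markers was 102 to 168 on the other root arrays and 577 on the mhz4 ethylene root array, against 21788 to 35782 in shoots. Seed storage and starch genes were alike on the root arrays (1103 to 1321 over 17 genes). The 15 root markers summed to 11308 in air and 19496 in ethylene in WT roots, and to 17573 and 21407 in mhz4 roots. The mhz5 shoots read 13859 and 18626 for the same markers, through the iron genes NAS1, NAS2 and IRT1, against 1432 to 3642 in the other shoots. They enter the fit but not the comparison, and without all mhz5 arrays 3364 probe sets were called in place of the 3584 given below. In whole roots, fewer cells of a type and less RNA per cell cannot be told apart.

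MHZ4 itself was lowest in the mhz4 roots. Its signal was 116 in air and 101 in ethylene in WT, and 46.9 in air and 45.3 in ethylene in mhz4. The other mutants read 87.5 in air and 92.6 in ethylene in mhz5, and 86.5 in air and 64.8 in ethylene in mhz1, so the 2 mhz4 root arrays lay below the other 6. The difference over both gases was -1.10 ± 0.15 (SE; limma, adjusted p = 0.00367). In shoots MHZ4 read 49.2 in air and 60.6 in ethylene in mhz4, against 163 in air and 134 in ethylene in WT. The transcript was lower but still measured, and since the mutation is not described, this checks the labels only in part.

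Over both gases, 3584 of the 23237 probe sets differed between mhz4 and WT roots (15.4%), with 2429 lower in mhz4 (10.5%) and 1155 higher (4.97%). The side that held more calls depended on scaling: quantile normalization gave 1597 lower and 1801 higher, and trimmed-mean scaling 1896 and 1549. The median over all probe sets was -0.06 as deposited, 0.01 after quantile normalization and -0.01 after trimmed-mean scaling. The count also rested on single arrays. It fell to 754 without the mhz4 air array, 960 without the WT air array, 1537 without the mhz4 ethylene array and 2038 without the WT ethylene array. Called with all arrays and without each of these 4 in turn were 533 probe sets, 384 lower and 149 higher.

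Within a gas, 1502 probe sets were at least 2-fold apart in air (6.46%) and 847 in ethylene (3.65%), as a description of those arrays. Of all probe sets, 526 were at least 2-fold apart in the same direction in both gases (2.26%), 403 lower (1.73%) and 123 higher (0.529%) in mhz4. Another 565 were at least 2-fold apart in air and under 1.5-fold in ethylene (2.43%), 416 lower (1.79%) and 149 higher (0.641%). The converse held for 154 (0.663%), 119 lower (0.512%) and 35 higher (0.151%). The remaining probe sets past 2-fold in a gas lay between these limits, except 2 with opposite signs. These classes are called both gases, air only and ethylene only below.

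**Figure D1:**
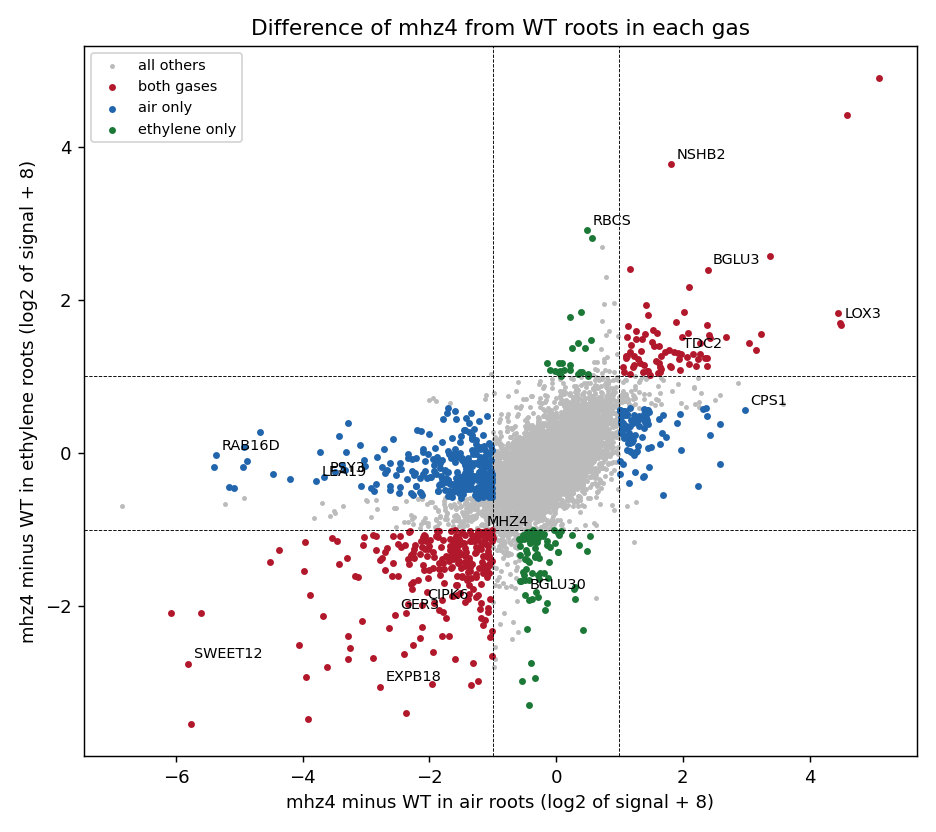
Difference of mhz4 from WT roots in air (x axis) against that in ethylene (y axis), both as log2 of signal + 8. Shown are the analysed probe sets to which 1 gene is annotated, with 1 array per group. Dashed lines mark 2-fold. Among the probe sets shown, red points are those of both gases, blue those of air only and green those of ethylene only. RAB16D lies far left at -5.37 in air and near 0 in ethylene.

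The ethylene-minus-air change of the mhz4 minus WT difference was tested in its own limma fit, and 1 of 23237 probe sets passed (0.0043%). An unadjusted p under 0.05 was found for 1163, about the number that this limit gives when nothing changes. That probe set belonged to LOC4324833, named here after its values were seen. Other settings called between 0 and 32 probe sets. Air only and ethylene only therefore describe these 4 arrays, and for every other probe set a difference in size between the gases did not pass its test. That fit had 1 array per group and 3 residual degrees of freedom, so a missed threshold does not show that the gases were alike.

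Of the named genes lower in both gases, SWEET12 had the widest difference. SWEET12, a sugar efflux transporter, read 776 in air and 84.2 in ethylene in WT, and 6.03 in air and 5.67 in ethylene in mhz4. Both mhz4 arrays lay at the dim end while WT was bright in air and weaker in ethylene, and the difference was -4.28 ± 0.69 (SE; limma, adjusted p = 0.00724). EXPB18, a beta-expansin that loosens cell walls, read 87.6 in air and 159 in ethylene in WT, and 5.97 in air and 12.2 in ethylene in mhz4. It was low by about the same amount in each gas, with -2.91 ± 0.16 (SE; limma, adjusted p = 7.04e-05). GER3, a germin-like wall protein, read 454 in air and 237 in ethylene in WT, and 71.2 in air and 48.5 in ethylene in mhz4, and TIP1-2, a water channel of the vacuole membrane, read 324 in air and 173 in ethylene in WT, and 57.9 in air and 38.2 in ethylene in mhz4. In both genes the WT and mhz4 signals did not overlap, with -2.33 (limma, adjusted p = 0.000231) and -2.15 (limma, adjusted p = 0.0018).

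CIPK6, a kinase that works with calcium sensors, was low by nearly the same amount in each gas. It read 852 in air and 764 in ethylene in WT, and 191 in air and 187 in ethylene in mhz4. Air and ethylene signals lay close within each genotype, and the difference was -2.05 ± 0.10 (SE; limma, adjusted p = 5.16e-05). OsC3H35, a CCCH zinc-finger protein, read 707 in air and 366 in ethylene in WT, and 118 in air and 115 in ethylene in mhz4, a difference of -2.05 (limma, adjusted p = 0.000951). Its second probe set also fell, by 1.36 (limma, adjusted p = 0.0204). IAA20 (LOC4340245), an Aux/IAA repressor of auxin signalling, read 161 in air and 417 in ethylene in WT, and 48.2 in air and 57.9 in ethylene in mhz4. WT was brighter in ethylene than in air here and mhz4 was low in both, with -2.14 (limma, adjusted p = 0.00851). A chitinase gene (LOC4351188) differed by -2.04 (limma, adjusted p = 0.00811), but mhz1 was low too, at 37.9 in air.

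Of the named genes higher in both gases, LOX3 had the widest difference. LOX3, a lipoxygenase, an enzyme class that starts jasmonate synthesis, read 25.4 in air and 174 in ethylene in WT, and 734 in air and 579 in ethylene in mhz4. Both mhz4 arrays were above both WT arrays, and WT itself was higher in ethylene; the difference was 3.08 ± 0.61 (SE; limma, adjusted p = 0.0141). BGLU3, a beta-glucosidase, read 8.91 in air and 11.1 in ethylene in WT, and 80.7 in air and 92.6 in ethylene in mhz4. It stood at the dim end in WT, with 2.39 (limma, adjusted p = 0.0037), and its second probe set differed by 1.19 (limma, adjusted p = 0.0178). TDC2, the tryptophan decarboxylase that makes tryptamine, read 102 in air and 186 in ethylene in WT, and 409 in air and 470.3 in ethylene in mhz4, a difference of 1.61 (limma, adjusted p = 0.00152). THT2, named for a transferase that joins hydroxycinnamic acids to tyramine, differed by 1.73 (limma, adjusted p = 0.0233).

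The high-affinity nitrate transporter NRT2.2 read 81.1 in air and 65.3 in ethylene in WT, and 230.1 in air and 273 in ethylene in mhz4. It was higher in mhz4 in each gas, with 1.68 ± 0.21 (SE; limma, adjusted p = 0.00287). EXPB3, another beta-expansin, read 1186 in air and 932 in ethylene in WT, and 2921 in air and 2200.4 in ethylene in mhz4, a difference of 1.26 (limma, adjusted p = 0.00158), and ADF11, an actin-depolymerising factor, differed by 1.17 (limma, adjusted p = 0.00135). For ADF11 and EXPB3 mhz1 was also high, at 1013 and 2072 in air, so WT was the lowest genotype. OsHsp18.8, a small heat shock protein, read 256 in air and 560.4 in ethylene in WT, and 1362 in air and 1239 in ethylene in mhz4, with 1.76 (limma, adjusted p = 0.0107). NSHB2, a non-symbiotic haemoglobin, read 14.8 in air and 82.9 in ethylene in WT, and 72.4 in air and 1236 in ethylene in mhz4. Its difference was 2.79 ± 0.73 (SE; limma, adjusted p = 0.0374) and lost the call without each of the 4 arrays in turn. CAB2R, a light-harvesting protein of leaves, differed by 1.25 (limma, adjusted p = 0.0376) at signals up to 113, while its second probe set, at 0.45, did not pass (limma, adjusted p = 0.211).

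**Figure D2:**
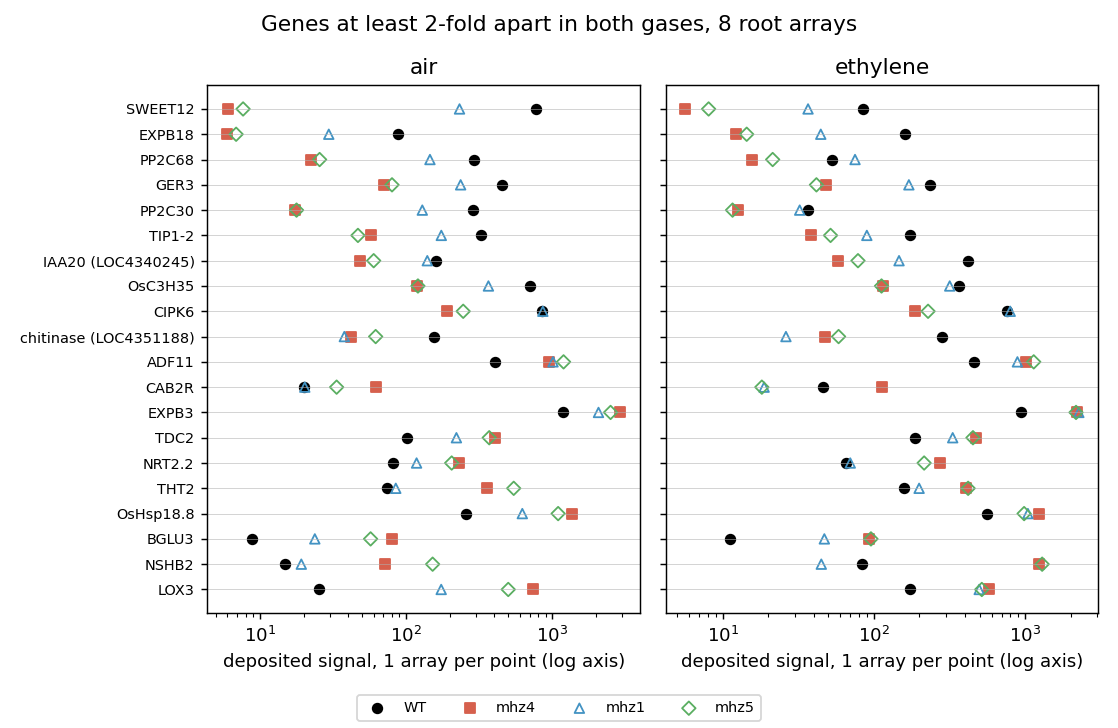
Deposited signal (log axis) of the 20 named genes of both gases in air (left) and ethylene (right), 1 point per root array: filled circles WT, filled squares mhz4, open triangles mhz1, open diamonds mhz5. The mhz4 squares lie beside the mhz5 diamonds for most genes, as for SWEET12 in air (6.03 and 7.69, against 776 in WT).

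The same genes were set against the other mutants. Of the 20, 0 differed between mhz4 and mhz5, a contrast in which 65 of all probe sets passed (0.28%). Their differences between those mutants ran from -0.53 (NSHB2) to 1.48 (CAB2R), and a missed threshold does not show that the mutants are alike. Between mhz4 and mhz1, 7 of the 10 lower and 4 of the 10 higher genes passed, where 8.59% of all probe sets did. The genes were chosen as extremes of the same mhz4 arrays, so a share above that of all probe sets is built in and nothing is read from it. In both gases mhz1 lay on the mhz4 side of WT for 8 of the 10 lower and 8 of the 10 higher genes. The same WT arrays entered the choice of these genes, so this count is partly built in too and nothing is read from it. In mhz1, LOX3 read 174 in air and 497 in ethylene, OsHsp18.8 624 in air and 1043 in ethylene, and BGLU3 23.8 in air and 47.0 in ethylene, all above WT, and for these 3 mhz4 minus mhz1 did not pass (limma, adjusted p = 0.277, 0.215 and 0.0606). TDC2 in mhz1 read 221 in air and 332 in ethylene, also above WT, and mhz4 was higher than mhz1 by 0.68 (limma, adjusted p = 0.0463). CIPK6 in mhz1 read 863 in air and 797 in ethylene, close to WT, and mhz4 minus mhz1 was -2.09 (limma, adjusted p = 6.09e-05). SWEET12 in mhz1 read 232 in air and 36.7 in ethylene, between WT and mhz4. Since WT is the only genotype whose root titles carry mb, the contrasts with mhz1 and mhz5 are the ones that do not involve that mark.

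A few genes without an informative name stood further apart, and they were picked after their values were seen. LOC4331398 read 6.23 in air and 5.31 in ethylene in WT roots and 477 in air and 389 in ethylene in mhz4 roots. It read 6.49 in air and 5.81 in ethylene in mhz5 and 850.0 in air and 1042 in ethylene in mhz1, so 2 genotypes were bright and 2 dim in either gas. In shoots it read 186 in air and 213 in ethylene in mhz4, against 5.24 in air and 4.88 in ethylene in WT, with mhz5 shoots as dim as WT. The root difference was 4.99 ± 0.14 (SE; limma, adjusted p = 2.81e-06), its second probe set gave 4.50 (limma, adjusted p = 7.7e-06), and mhz4 also differed from mhz5 (limma, adjusted p = 3e-06). On the lower side LOC4352168 read 2436 in air and 685 in ethylene in WT, and 37.0 in air and 51.6 in ethylene in mhz4, a difference of -4.65 (limma, adjusted p = 0.00239).

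Of the 10 named genes lower in air only, 4 were LEA and dehydrin genes, which were bright in WT air roots and far dimmer on the other 3 arrays. RAB16D, a dehydrin, read 1711 in air and 30.8 in ethylene in WT, and 33.7 in air and 29.97 in ethylene in mhz4. RAB16B read 571 in air and 12.9 in ethylene in WT, and 9.12 in air and 7.26 in ethylene in mhz4, and RAB16C 727 in air and 19.5 in ethylene in WT, and 20.7 in air and 25.1 in ethylene in mhz4. LEA19 read 1516 in air and 60.3 in ethylene in WT, and 103 in air and 45.02 in ethylene in mhz4. The mhz4 roots in air were thus already at or near the level that WT reached in ethylene, and in ethylene the genotypes were close, with differences of -0.03, -0.45, 0.27 and -0.36. In air the differences were -5.37, -5.08, -4.68 and -3.78.

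RAB21, another dehydrin, had the widest gap of these, 3089 in air and 22.6 in ethylene in WT, and 18.83 in air and 10.9 in ethylene in mhz4. Its difference was -6.85 in air and -0.69 in ethylene, which put it just outside the 1.5-fold limit of the class. These genes rest on 1 bright array. Over both gases they did not pass the test (limma, adjusted p = 0.123 for RAB16D, 0.0852 for RAB16B and 0.0731 for LEA19), and neither did the change between gases (limma, adjusted p = 0.319, 0.31 and 0.294). On the mhz1 air array RAB16D read 349, LEA19 286 and RAB21 565, below WT and above mhz4. RAB16D was analysed only because that array reached the signal minimum beside WT air. Its place above mhz4 there was thus fixed by the filter, and nothing is read from it. In mhz5 air roots RAB16D, LEA19 and RAB21 read 30.9, 105 and 13.5.

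Dhn1, a dehydrin that was bright on all 4 arrays, was the member of this list that passed. It read 1378 in air and 695 in ethylene in WT, and 515 in air and 514 in ethylene in mhz4. mhz4 held 1 level in both gases and lay below WT in each, with -0.92 ± 0.23 (SE; limma, adjusted p = 0.0348), while its other 2 probe sets differed by -0.24 and -0.16 and did not pass. Of the 7 LEA and dehydrin genes, 6 were analysed, and 6 were at least 2-fold lower in air (4.91% of all probe sets were) and 0 in ethylene (2.81% were). The seventh, EM, read 87.5 in WT air and 20.1 in mhz4 air and missed the signal minimum. Because 2 arrays had to reach that minimum, a gene at or above it in WT air alone was left out, so the 6 are not the whole list. RAB16D and RAB16C reached it on the WT air and mhz1 air root arrays only, so they were kept through the group where they were bright. The share lower in air is thus partly built in, and nothing is read from it. The list median was -4.88 in air and -0.40 in ethylene, beside -0.05 and -0.07 over all probe sets. The list held no probe set called for the gas change.

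The other 6 named genes lower in air only belong to no common list. PSY3, a phytoene synthase known in rice as the stress-induced form, read 259 in air and 26.6 in ethylene in WT, and 13.1 in air and 19.8 in ethylene in mhz4. PXG, a peroxygenase of lipid bodies, read 87.5 in air and 8.03 in ethylene in WT, and 6.60 in air and 8.68 in ethylene in mhz4, and PM19L, a membrane protein of the AWPM-19 type, read 1108 in air and 46.7 in ethylene in WT, and 107 in air and 64.1 in ethylene in mhz4. For all 3, both mhz4 arrays and the WT ethylene array lay far below the WT air array. CML31, a calmodulin-like calcium sensor, read 646 in air and 186 in ethylene in WT, and 78.3 in air and 133 in ethylene in mhz4, and it alone of these 10 genes passed over both gases, with -1.69 (limma, adjusted p = 0.0485). ELA3 differed by -3.72 in air and 0.01 in ethylene. LOC4340640, listed as PDHE1-A, a subunit of pyruvate dehydrogenase, differed by -4.47 in air and -0.28 in ethylene. ELA3 and LOC4340640 reached the signal minimum on the WT air and mhz1 air root arrays only, so they too were kept through the group where they were bright.

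Named genes higher in air only numbered 7. CPS1, the first enzyme of gibberellin synthesis, read 10.3 in air and 5.05 in ethylene in WT, and 136 in air and 11.3 in ethylene in mhz4. Its air signal was high in mhz4 and also in mhz1 (85.1), less so in mhz5 (37.0), and the difference over both gases was 1.77 (limma, adjusted p = 0.0374). NRAMP5, which takes up manganese in rice roots, read 324 in air and 591 in ethylene in WT, and 768 in air and 579 in ethylene in mhz4. The phosphate transporter PT2 read 381 in air and 561 in ethylene in WT, and 877 in air and 567 in ethylene in mhz4. For both, mhz4 in air stood above WT while the ethylene arrays were nearly level, and neither passed over both gases (limma, adjusted p = 0.152 and 0.195). PHT1-8, a phosphate transporter, and LOGL1, an enzyme that activates cytokinin, had smaller differences in ethylene but passed over both gases, with 0.75 (limma, adjusted p = 0.023) and 0.87 (limma, adjusted p = 0.0227). Another probe set of PHT1-8 differed by 0.82 in air and 0.64 in ethylene, outside the limits of the class in each gas. AT7 differed by 0.86 (limma, adjusted p = 0.0483), and OsCASPL1C1, of the Casparian strip protein family, read 142 in mhz4 air against 40.5 in WT air.

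**Figure D3:**
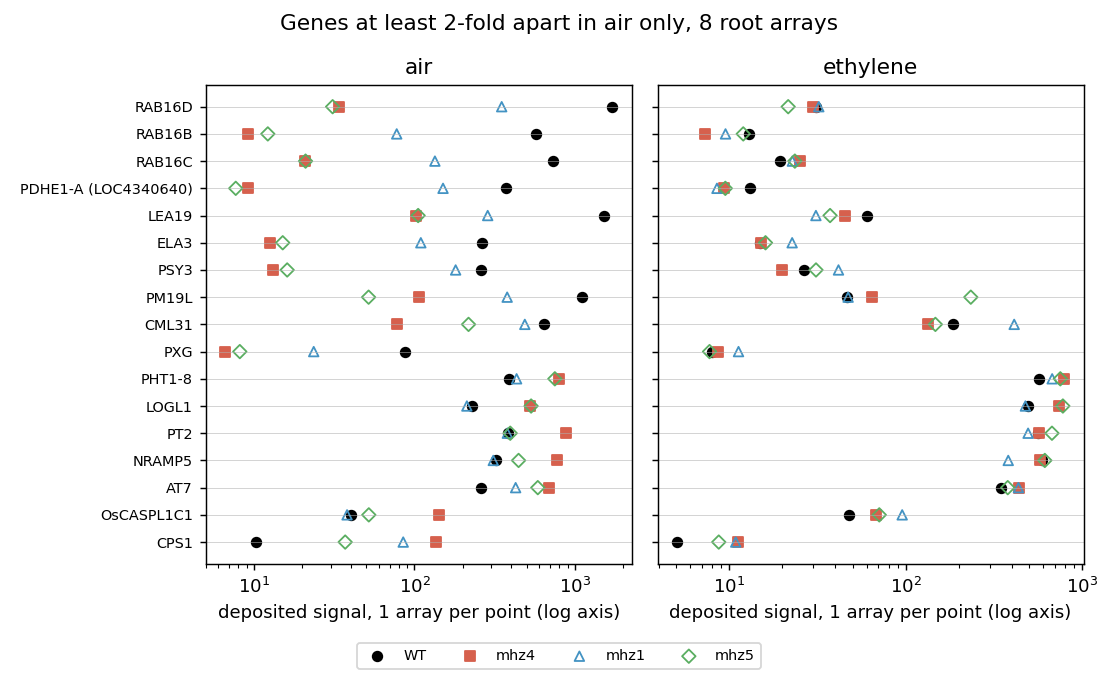
Deposited signal (log axis) of the 17 named genes of air only in air (left) and ethylene (right), 1 point per root array: filled circles WT, filled squares mhz4, open triangles mhz1, open diamonds mhz5. In air the WT circles of RAB16D and LEA19 lie at 1711 and 1516, the mhz1 triangles lower and the mhz4 squares at 33.7 and 103, and in ethylene the 4 genotypes lie close together.

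Across the 565 air-only probe sets, the 2 WT arrays differed at least 2-fold from each other in the same direction for 40.4%, and the 2 mhz4 arrays for 14%. In air, 48.7% were at least 2-fold apart between mhz4 and mhz1 on the same side, 14.5% between WT and mhz1, and 20.7% between mhz4 and mhz5. Each of these shares an array with the choice of the class, so they are descriptions only. With the mhz1 root arrays in place of WT, 383 probe sets fell into the air-only class, and 186 of them were also air only against WT (32.9% of the list against WT, 48.6% of that against mhz1). For both gases 373 did, and 219 were in both lists (41.6% and 58.7%). Both controls were set against the same mhz4 arrays, and even so most probe sets of each class against WT were not in that class against mhz1.

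In ethylene only, BGLU30, a beta-glucosidase, read 1388 in air and 1009 in ethylene in WT, and 981 in air and 274 in ethylene in mhz4. Of the 4 arrays the mhz4 ethylene array was the low one, and over both gases the difference was -1.18 (limma, adjusted p = 0.0309). Its second probe set differed by -0.97 in air and -2.54 in ethylene, outside the 1.5-fold limit of the class in air, and by -1.76 over both gases (limma, adjusted p = 0.0092). ASMT3, of the family that makes melatonin, GER5, a germin-like protein, and GLU6 had ethylene differences of -1.88, -1.81 and -1.60, and none passed over both gases (limma, adjusted p = 0.106, 0.0771 and 0.0541). OsCASPL1B1 read 114 in air and 150.3 in ethylene in WT, and 75.0 in air and 41.9 in ethylene in mhz4 and passed, with -1.11 (limma, adjusted p = 0.0142). In mhz5 it read 49.9 in air and 43.7 in ethylene, low in both gases.

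Higher in ethylene only were NIA1, ILI2, RBCS, RCAA1 and CYCD6-1, none of which passed over both gases. NIA1, a nitrate reductase, read 146 in air and 132 in ethylene in WT, and 217 in air and 379.9 in ethylene in mhz4. ILI2, a small helix-loop-helix protein, read 88.4 in air and 8.93 in ethylene in WT, and 135 in air and 110.3 in ethylene in mhz4, so the WT ethylene array was the low one. It was also low in mhz1, at 6.04 in air and 7.71 in ethylene. CYCD6-1, a D-type cyclin, differed by 0.38 in air and 1.06 in ethylene.

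RBCS, the small subunit of Rubisco, and RCAA1, Rubisco activase, are leaf genes. RBCS read 31.8 in air and 42.5 in ethylene in WT, and 47.9 in air and 373 in ethylene in mhz4, and RCAA1 read 4.56 in air and 6.74 in ethylene in WT, and 7.97 in air and 31.7 in ethylene in mhz4. The mhz4 ethylene array stood above the other 7 root arrays for both. On that array the summed shoot markers were 1.93% of those of the mhz4 shoot in ethylene, against 0.468% for mhz4 in air and 0.626% for WT in ethylene, with RBCS and CAB2R the 2 of 8 markers at or above 50. RBCS1 read 3.53, as low as in shoots. The other 2 probe sets of RBCS differed by 0.41 and 0.15 in ethylene. RCAA1 lay below 50 on every root array and met the signal minimum through the shoot arrays. Its other analysed probe sets differed by 0.37, 0.40 and 1.37 in ethylene. LOC4324833, which passed for the gas change, read 39.5 in air and 52.9 in ethylene in WT, and 1027 in air and 209 in ethylene in mhz4 and was bright in shoots (6271 to 7021). The change of its mhz4 minus WT difference was -2.61 ± 0.17 (SE; limma, adjusted p = 0.0281). It was lower in ethylene than in air in mhz4 roots, whereas the summed shoot markers were higher there. Of the 35 probe sets higher in ethylene only, 28.6% were at least 8-fold brighter in WT shoots than in WT roots, a limit chosen after the data were seen, against 4.19% of all probe sets. The share was 14.3% for those lower in ethylene only and 13% for those higher in both gases. It was 5.37% for those higher in air only, 2.98% for those lower in both gases and 2.88% for those lower in air only. The WT root signal entered both the choice of the classes and this ratio, so these shares are descriptions only. The part of shoot RNA in these results was not tested.

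Of 11 genes of ABA and carotenoid metabolism, all analysed, 4 were lower in mhz4 roots and 0 higher, where 10.5% and 4.97% of all probe sets were. The list median was -0.83 over both gases, -1.18 in air and -0.44 in ethylene. Besides MHZ4, the called members were ABA8OX2, PSY2 and ZEP. ABA8OX2, an ABA 8′-hydroxylase, read 526 in air and 186 in ethylene in WT, and 100.4 in air and 88.0 in ethylene in mhz4, and mhz4 was low in both gases, with -1.66 ± 0.26 (SE; limma, adjusted p = 0.00669). PSY2, a phytoene synthase, read 189 in air and 126 in ethylene in WT, and 76.2 in air and 90.9 in ethylene in mhz4, and ZEP, zeaxanthin epoxidase, read 140.0 in air and 76.6 in ethylene in WT, and 57.1 in air and 53.03 in ethylene in mhz4. Their differences were -0.83 (limma, adjusted p = 0.0196) and -0.83 (limma, adjusted p = 0.0153). PSY2 was as low in mhz1 (83.0 in air and 73.1 in ethylene).

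The other members did not pass. ABA8OX1 read 235 in air and 116 in ethylene in WT, and 77.6 in air and 83.4 in ethylene in mhz4 (limma, adjusted p = 0.119), with differences of -1.50 in air and -0.44 in ethylene. The desaturase PDS, at -0.22 in air and -0.19 in ethylene, and the aldehyde oxidases AO-1, AO-2 and AO-4 differed by -0.39, 0.20 and 0.00 over both gases. PSY1 differed by -0.35. PSY3 was described with the genes of air only.

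Among 6 clade A PP2C genes, 5 were lower in mhz4 and 0 higher (10.5% and 4.97% of all probe sets), with a list median of -1.26. PP2C68 read 292 in air and 53.2 in ethylene in WT, and 22.5 in air and 15.7 in ethylene in mhz4, and PP2C30 read 287 in air and 36.5 in ethylene in WT, and 17.5 in air and 12.5 in ethylene in mhz4. In both genes the gap was wide in air and narrower in ethylene, where WT was itself low, with -2.33 (limma, adjusted p = 0.0101) and -2.33 (limma, adjusted p = 0.0198). OsPP2C09 read 501 in air and 329 in ethylene in WT, and 125 in air and 129 in ethylene in mhz4, a difference of -1.62 ± 0.18 (SE; limma, adjusted p = 0.00171). It was the PP2C whose call held without each of the 4 arrays in turn. PP2C06 differed by -0.89 (limma, adjusted p = 0.0145) and PP2C53 by -0.58 (limma, adjusted p = 0.0161). OsPP2C08 read 276 in air and 90.1 in ethylene in WT, and 105 in air and 79.6 in ethylene in mhz4 and did not pass (limma, adjusted p = 0.0756).

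Of 13 receptor, kinase and bZIP genes of the same pathway, 4 were lower and 0 higher, where 10.5% and 4.97% of all probe sets were. The list median was -0.33, beside -0.06 over all probe sets. BZIP23, a bZIP activator of ABA responses, read 1187 in air and 616 in ethylene in WT, and 433 in air and 384 in ethylene in mhz4, and the difference was -1.05 ± 0.19 (SE; limma, adjusted p = 0.0105). TRAB1, another such bZIP, differed by -0.58 (limma, adjusted p = 0.00893). The kinases SAPK7 and SAPK5 differed by -0.61 (limma, adjusted p = 0.0204) and -0.37 (limma, adjusted p = 0.0149). The receptor PYL11 differed by -0.10, and the other 8 kinases of the family by -0.36 (SAPK1) to 0.23 (SAPK4), none past the test.

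**Figure D4:**
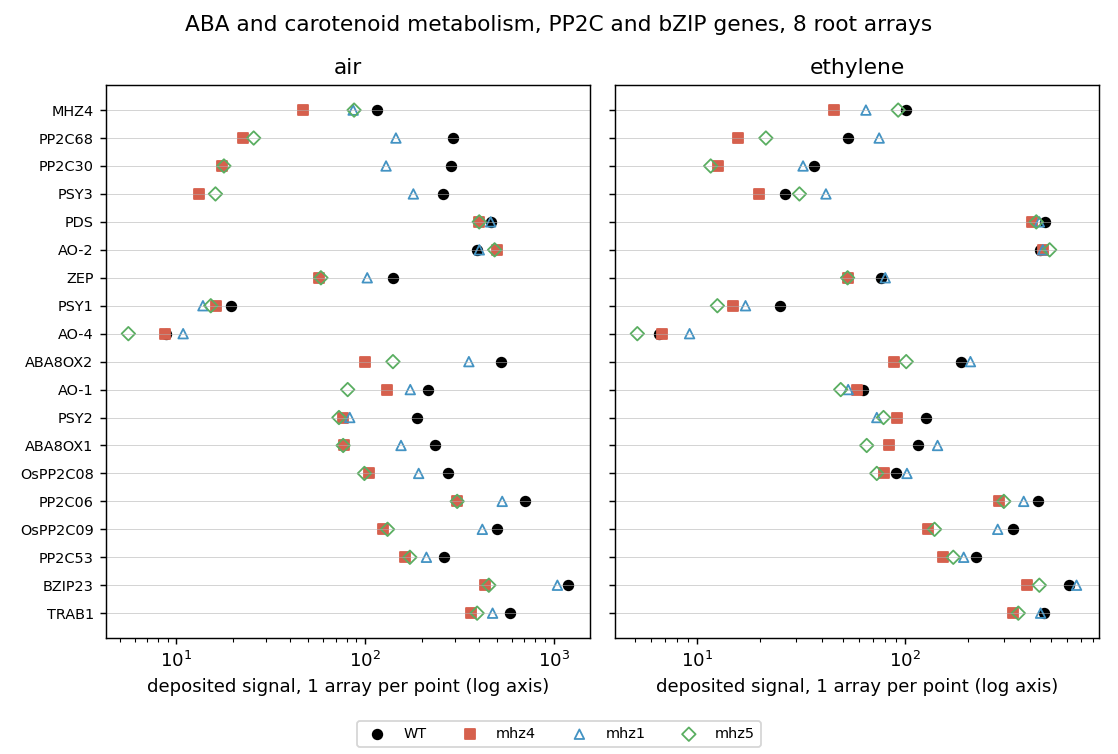
Deposited signal (log axis) of MHZ4, the other ABA and carotenoid genes, the PP2C genes and the bZIP genes BZIP23 and TRAB1 in air (left) and ethylene (right), 1 point per root array: filled circles WT, filled squares mhz4, open triangles mhz1, open diamonds mhz5. In air the WT circle of ABA8OX2 lies at 526, mhz1 at 356, mhz5 at 141 and mhz4 at 100.4, and in ethylene the gap between WT and mhz4 is narrower.

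Of 9 ethylene synthesis and signalling genes, 3 were lower and 0 higher, where 10.5% and 4.97% of all probe sets were. The list median was -0.09, close to the -0.06 over all probe sets. ERS2, an ethylene receptor, read 168 in air and 158 in ethylene in WT, and 80.6 in air and 80.9 in ethylene in mhz4. Each genotype read nearly the same in both gases and mhz4 was lower, with -0.95 ± 0.11 (SE; limma, adjusted p = 0.00237). EIL1B, of the family of EIN3-like transcription factors, read 703 in air and 388 in ethylene in WT, and 334 in air and 126 in ethylene in mhz4, and ACO1, which makes ethylene from its precursor, read 87.0 in air and 64.3 in ethylene in WT, and 28.3 in air and 31.5 in ethylene in mhz4. Their differences were -1.31 (limma, adjusted p = 0.0157) and -1.13 (limma, adjusted p = 0.0285). EIN2, EIL1A, ETR2, ETR3 and ERS1 differed by at most 0.32 in size in either gas.

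Of 57 auxin genes 10 were lower and 1, ARF12, higher, where 10.5% and 4.97% of all probe sets were, and the list median was -0.14 beside -0.06 over all. As deposited, 67.8% of all calls were on the lower side. PIN2, an auxin efflux carrier of root tips, read 484 in air and 546 in ethylene in WT, and 314 in air and 341 in ethylene in mhz4, a difference of -0.64 (limma, adjusted p = 0.0114). ILL3, which frees auxin from storage conjugates, read 4360.4 in air and 2536 in ethylene in WT, and 2742 in air and 1387 in ethylene in mhz4, with -0.77 (limma, adjusted p = 0.00256). The repressor IAA9 differed by -1.30 (limma, adjusted p = 0.00842), SAUR39 by -1.22, ILL2 by -1.10, ARF23 by -0.51, and IAA17, IAA23 and ARF10 by -0.23 to -0.47. ARF12 differed by 0.45 (limma, adjusted p = 0.036). Of 24 cytokinin genes 8 were lower and 1, LOGL1, higher, against the same shares. They included the receptor HK3 (-0.37), the phosphotransfer protein AHP2 (-0.25), the response regulators RR1, ORR3 and ORR4 (-0.37 to -0.50) and the activating enzymes LOG, LOGL5 and LOGL7 (-0.51 to -0.84). After quantile normalization or trimmed-mean scaling, 5 cytokinin genes were lower and 2 higher. In gibberellin genes, CPS1 was the 1 call of 12, on the higher side, where 4.97% of all probe sets were.

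Of 33 jasmonate genes 2 were lower and 1 higher, both below the shares of all probe sets (10.5% and 4.97%). OPR4 (LOC4340486), an oxophytodienoate reductase-like gene, read 344 in air and 311 in ethylene in WT, and 90.4 in air and 172 in ethylene in mhz4, a difference of -1.33 (limma, adjusted p = 0.0288). The receptor COI1 differed by -0.29 (limma, adjusted p = 0.0262), and LOX3 was the higher one. Of 21 pathogenesis-related genes 4 were lower and 0 higher, where 10.5% and 4.97% of all were. Cht3, a chitinase, read 482 in air and 658 in ethylene in WT, and 94.4 in air and 198 in ethylene in mhz4, with -1.97 (limma, adjusted p = 0.0124). Cht1 (LOC4342115) differed by -1.54 (limma, adjusted p = 0.00906), and the cystatin OC-I by -0.20 (limma, adjusted p = 0.0469). The chitinase LOC4351188, given above, was the fourth.

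Of 22 expansins 3 were lower, close to the 10.5% of all probe sets, and 3 higher, where 4.97% of all were. Their list median was -0.06, as over all probe sets. EXPA31 read 175 in air and 135 in ethylene in WT, and 44.9 in air and 26.1 in ethylene in mhz4, a difference of -1.93 ± 0.16 (SE; limma, adjusted p = 0.000473). EXPA10 differed by -0.80 (limma, adjusted p = 0.0031). On the higher side EXPA2 read 733 in air and 631 in ethylene in WT, and 1125 in air and 1235 in ethylene in mhz4, with 0.79 (limma, adjusted p = 0.00299), and EXPB11 differed by 0.66 (limma, adjusted p = 0.0251). EXPB18 and EXPB3 completed the 6. Among 21 aquaporins 3 were lower, the vacuolar TIP1-2 and TIP2-2 (-0.40) and SIP2-1 (-0.52), and 0 higher, against the same shares of all probe sets. Of 9 germin-like genes GER3 was lower and GER4 higher, by 0.41 (limma, adjusted p = 0.00848), against the same shares. After quantile normalization or trimmed-mean scaling 3 of them were higher. The peroxidase PRX74 differed by 0.59 (limma, adjusted p = 0.0121), the 1 call of the 2 peroxidases analysed.

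Of 22 nitrogen and phosphate transport genes 3 were lower, close to the 10.5% of all probe sets, and 5 higher, where 4.97% of all were. NRT2.3, a nitrate transporter, read 70.2 in air and 103 in ethylene in WT, and 155 in air and 233 in ethylene in mhz4, with 1.09 (limma, adjusted p = 0.0209). NAR2.2, the partner protein of NRT2 transporters, differed by 1.17 (limma, adjusted p = 0.00435), so 3 genes of nitrate uptake, NRT2.2 included, were higher. The ammonium transporters went apart: AMT3-2 read 955 in air and 853 in ethylene in WT, and 349 in air and 358 in ethylene in mhz4, with -1.33 ± 0.14 (SE; limma, adjusted p = 0.00155), and AMT1-1 differed by 0.39 (limma, adjusted p = 0.0182). The phosphate transporter PHT1-4 read 831 in air and 639 in ethylene in WT, and 211 in air and 220.2 in ethylene in mhz4, with -1.72 (limma, adjusted p = 0.0139). The phosphate-response factor PHR3 differed by -1.11 (limma, adjusted p = 0.0196), and PHT1-8 was higher.

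Iron genes had a list median of 0.40 over 24 genes, 0.64 in air and 0.09 in ethylene. Of these genes 3 were higher and 1 lower, where 4.97% and 10.5% of all probe sets were. NRAMP3 differed by 0.77 (limma, adjusted p = 0.00435). The other calls were NRAMP4 (0.64) and VIT1 (0.43) on the higher side and YSL13 (-0.82) on the lower. Further analysed probe sets of NRAMP4 differed by 0.09, 0.42 and 0.47, and none of them passed. The root uptake genes IRT1 and YSL15 read 168 and 387 in WT air and 378 and 714 in mhz4 air, and neither passed (limma, adjusted p = 0.347 and 0.167). The summed root markers, which share IRT1, NAS1 and NAS2 with this list, were also higher in mhz4 air than in WT air, and their part in these values was not tested.

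Of 23 sugar genes 2 were lower and 4 higher, where 10.5% and 4.97% of all probe sets were. SUS4, a sucrose synthase, read 328 in air and 91.1 in ethylene in WT, and 60.8 in air and 61.1 in ethylene in mhz4, with -1.41 (limma, adjusted p = 0.0425), and SWEET12 was the other lower gene. SWEET2A read 972 in air and 1026 in ethylene in WT, and 1473 in air and 1558 in ethylene in mhz4, with 0.60 (limma, adjusted p = 0.00192). SWEET2B, SWEET4 and SUS1 differed by 1.08, 0.52 and 0.31. Of 40 heat shock genes 9 were lower, against the same 10.5%, and OsHsp18.8 was higher. After quantile normalization 6 were lower. The factor HSFB1 read 339 in air and 268 in ethylene in WT, and 172 in air and 169 in ethylene in mhz4, with -0.79 (limma, adjusted p = 0.00441), and the lower members ranged from -1.18 (HSFC2A) to -0.35 (HSFA4B). Small heat shock genes thus lay on both sides, with OsHsp23.2 at -1.12 (limma, adjusted p = 0.0162).

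Low-oxygen genes had 1 call of 7, NSHB2, on the higher side, where 4.97% of all probe sets were. The second haemoglobin, NSHB1, read 54.1 in air and 76.0 in ethylene in WT, and 95.1 in air and 534 in ethylene in mhz4 and did not pass (limma, adjusted p = 0.0738). Both haemoglobins were bright on the mhz4 ethylene array, whereas Adh2, alcohol dehydrogenase, read 3727 in WT and 3930.4 in mhz4 there. Of 61 histone and cell-cycle genes 4 were lower and 1 higher, both below the shares of all probe sets, with a list median of 0.02 and differences of -0.40 (CDKE-1) to -0.34 (CDKG-2) among the lower and 0.30 for H2B.10. The 4 lower calls became 0 after quantile normalization and 2 after trimmed-mean scaling, and the 1 higher call became 3 and 2.

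**Figure D5:**
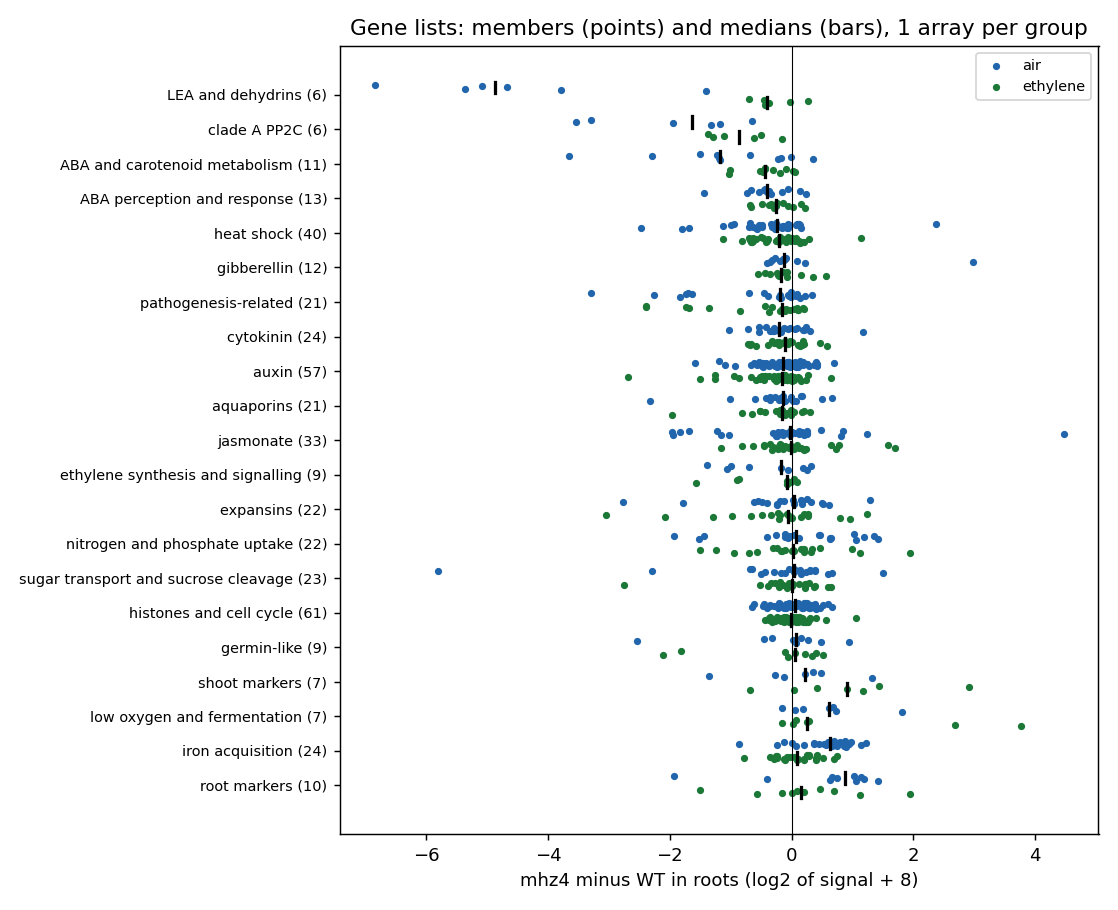
Difference of mhz4 from WT roots (log2 of signal + 8) for every analysed member of 21 gene lists, in air (blue, upper) and ethylene (green, lower), 1 array per group; black bars are list medians and the number of members is in brackets. The LEA and dehydrin list lies at -4.88 in air and -0.40 in ethylene, and the clade A PP2C and ABA metabolism lists lie below 0 in both gases.

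The root-minus-shoot difference was tested in the same fit. It passed for 12 of the 48 genes named above as MHZ4 or by class, the same share as the 24.9% of all probe sets, so the count says nothing particular to these genes. In shoots SWEET12 read 4.08 in air and 3.99 in ethylene in WT, and 5.10 in air and 4.13 in ethylene in mhz4, so the root gap had no counterpart there (root minus shoot -4.35; limma, adjusted p = 0.0175). NSHB2 read 843 in air and 1286 in ethylene in WT shoots, and 53.6 in air and 592 in ethylene in mhz4 shoots, where mhz4 was lower (limma, adjusted p = 0.0409) while it was higher in roots. CIPK6 was lower in mhz4 shoots too, at -1.76 (limma, adjusted p = 9.29e-05), as was OsPP2C09, at -2.21 (limma, adjusted p = 0.000314).

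Of the named genes 102 were called over both gases, and 22 of those were called without each of the 4 arrays in turn. The lower ones among the 22 were MHZ4, EXPB18, GER3, TIP1-2, OsC3H35, CIPK6, ILL3, OsPP2C09, ERS2, EXPA31, EXPA10, HSFB1 and AMT3-2. Of these, EXPB18 passed the signal minimum through the WT root arrays only. The higher ones were ADF11, EXPB3, TDC2, NRT2.2, BGLU3, EXPA2, NRAMP3, NAR2.2 and SWEET2A. Each of the other called genes lost its call without at least 1 of the 4 arrays.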

How the data were processed

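The authors deposited 1 linear intensity for each probe set on each array, and the submitters' processing notes name MAS5. How MAS5 scaled the arrays is not given in the sources used here, and the comparability of arrays rests on that step. Each array took biotin cRNA from 6 µg of RNA, per the labels' protocols. Detection calls were not used.

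The table held 57381 probe sets. Leaving out 123 control probe sets, 57258 were used without further scaling, as log2(signal + 8). Those with a signal of at least 50 on 2 arrays were fitted with limma 3.58.1 in R 4.3.3, with a variance trend and Benjamini-Hochberg adjustment over 23237 probe sets at 0.05. The fit over both gases had 7 terms for genotype and tissue and 2 ethylene terms (root and shoot). It left 5 residual degrees of freedom, and the median residual SD was 0.12. The fit of the gas change had 4 ethylene terms and 3 residual degrees of freedom, and assumes that each of the 4 lone arrays varies like the others. Both were tested on simulated data. With 1 array per group, the number of arrays limits the precision.

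The platform annotation named 1 gene for 22436 probe sets, several for 95 and none for 34727. The rice gene table (assembly ASM3414082v1) held all 17905 genes, 2456 with an informative name. Each gene's brightest probe set on average stood for it, and close paralogs may share transcripts. Named were MHZ4, the 10 lowest and 10 highest of both gases that were called, the 10 lowest and up to 8 highest of air only, the 5 lowest and 5 highest of ethylene only, called members of 23 gene lists, and every measured ABA and PP2C member. Naming unlabelled genes by product was not possible, since no product descriptions were used here. The genes and lists were chosen with earlier results of these data known. The alternatives tried are given with their values below.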

Additional observations from a re-analysis of the deposited data

Results flagged for a closer look

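The mhz4 minus WT difference changed between gases for 1 probe set, that of LOC4324833, by -2.61 ± 0.17 (SE; limma, adjusted p = 0.0281). In mhz4 roots it read 1027 in air and 209 in ethylene, against 39.5 and 52.9 in WT. It read 119 and 66.5 in mhz1 and 184 and 96.9 in mhz5, so the mhz4 air array was the highest of the 8 root arrays. It was not called with a pseudocount of 32, on root arrays only or without a variance trend.

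The mhz4 minus WT difference was unlike in roots and shoots for 12 of the 48 genes named as MHZ4 or by class, by the root-minus-shoot contrast of the limma fit (adjusted p between 0.000815 and 0.0268). It was more negative in roots for SWEET12 (-4.35), EXPB18 (-2.94), GER3 (-3.31), TIP1-2 (-1.48) and OsCASPL1B1 (-1.31). It was more positive in roots for ADF11 (1.23), EXPB3 (1.66), TDC2 (1.296), NRT2.2 (1.68), NSHB2 (5.24), CPS1 (2.74) and CYCD6-1 (1.43). The 12 of 48 are the same share as the 24.9% of all probe sets that passed, so the count says nothing particular to these genes. Among the other 90 named genes, 45 passed.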

How the results depend on the processing

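No paired analysis was possible because every group holds 1 array and all labels carry the same replicate number; mhz4 and WT were paired by gas in the fit itself. Over both gases, leaving out 1 of the 4 arrays gave 754 to 2038 called probe sets in place of 3584, and fitting only the 4 arrays gave 137, with fewer residual degrees of freedom. The other alternatives gave 2724 (separate ethylene terms) to 3865 (no signal minimum). For the gas change, the 1 call became 2 with a pseudocount of 2, 0 with 32, 32 without a signal minimum, 2 with a minimum of 100, 5 after quantile normalization, and 0 on root arrays only or without a variance trend. The causes were not tested. At 3-fold, the classes held 110 (both gases), 183 (air only) and 33 (ethylene only) probe sets. Allowing up to 2-fold in the other gas gave 974 for air only and 319 for ethylene only, and a pseudocount of 32 gave 291 for both gases. Of 102 named genes called, 93 lost the call on the 4 arrays alone, 39 to 75 without 1 of the 4, 14 after quantile normalization and 11 after trimmed-mean scaling. No direction reversed for a called gene under the alternatives run.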
